A study of Homo sapiens with 6 samples.

Results

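RAG1, RAG2 and DNTT, the genes of the V(D)J recombinase and of terminal deoxynucleotidyl transferase (TdT), were followed in MOLT-4, a human cell line of T cell acute lymphoblastic leukemia (T-ALL). Their rows were found by gene symbol, which gave 3 of 60640 gene identifiers, and all 3 genes were among the 12652 that passed the filter on low values and were tested. Messenger RNA was sequenced in 3 libraries of wild type cells, taken here as the control of the CRISPR knockout. Another 3 libraries carry the label IK-KO, made from cells whose IKZF1 gene (the zinc finger factor IKAROS) was edited with CRISPR-Cas. Both groups were MOLT-4 cells grown in RPMI1640 with FBS, and no drug was given. The edited cells and their control were obtained from a company, the labels name no clone, and nothing states that the replicates were separate cultures, so the p-values measure the spread between these libraries, which may be technical. Any other difference between the edited line and its control cannot be told apart from the edit of IKZF1. The question addressed here was how far the transcripts of the recombination machinery differed between the groups.

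V(D)J recombination assembles the variable exons of T cell receptor and immunoglobulin genes from separate segments in immature lymphocytes. RAG1 and RAG2 together form the recombinase that cuts DNA beside the segments, at recombination signal sequences, and the breaks are closed by the factors of classical end joining. TdT, encoded by DNTT, adds nucleotides without a template at the junctions, and its presence is used in the clinic as a mark of lymphoblasts. IKAROS is known in mouse to bind the promoter of Dntt, at sites whose core GGGAA contains the core of ETS factors.

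The 250 bases before the start of the canonical transcript are shown for 2 of the 3 members, RAG2 and DNTT, so that the letters of the IKAROS core can be seen in place, and nothing about the size of a change is read from them. They were read from GRCh38, 5′ to 3′ on the strand of the gene, at chr11:36598237-36598486 (minus strand) for RAG2 and chr10:96304184-96304433 (plus strand) for DNTT, and both equal the first 250 bases of the longer windows in the RefSeq promoter table. Capitals mark GGGAA or its complement TTCCC.
RAG2: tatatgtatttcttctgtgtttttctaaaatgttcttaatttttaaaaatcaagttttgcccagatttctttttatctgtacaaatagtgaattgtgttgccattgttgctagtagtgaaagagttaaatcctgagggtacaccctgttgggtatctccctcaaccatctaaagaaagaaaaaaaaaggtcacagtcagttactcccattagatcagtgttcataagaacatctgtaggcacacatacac
DNTT: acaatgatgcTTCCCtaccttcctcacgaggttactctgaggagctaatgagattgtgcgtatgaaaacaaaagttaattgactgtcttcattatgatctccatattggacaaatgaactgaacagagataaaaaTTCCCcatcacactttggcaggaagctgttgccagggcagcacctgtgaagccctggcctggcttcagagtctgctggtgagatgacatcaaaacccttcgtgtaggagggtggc
The DNTT window held 2 matches to GGGAA, both on the strand opposite to the gene, whereas the RAG2 window held 0. At least 1 match was present in 59.0% of 35116 RefSeq promoter windows (GRCh38), each trimmed to its first 250 bases, and 2 or more in 24.1%. The ETS core GGAA, which lies inside GGGAA, was found 4 times before DNTT and 0 times before RAG2, on either strand, against at least 1 match in 92.7% of all windows. The E-box CANNTG, the site of E proteins, had 2 matches before DNTT and 1 before RAG2, and 61.8% of windows held one. A match describes these letters only and is no evidence of binding.

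The targeted gene was examined first. IKZF1 was listed at 134, 124 and 105 FPKM (fragments per kilobase of transcript, scaled to the mapped fragments of the library) in wild type, and at 207, 260 and 207 under the IK-KO label, which was 1.86-fold higher (log2 difference 0.89, limma adjusted p = 0.00294). The RNA level of IKZF1 therefore goes against the label taken as a loss of transcript, and does not show whether protein was made. Per the study's methods the knockout was checked by PCR and western blot, which are not analysed here. Of 18 T-lineage markers all passed the filter, and 14 were called (77.8%, against 19.9% of all 12652 tested genes), 6 higher and 8 lower, with a median log2 difference of −0.36. CD2, an adhesion receptor of T cells, fell from 61.5 to 5.14 FPKM in the group means (log2 −3.35, limma adjusted p = 1.41e-06), and TRAC, the constant region of the T cell receptor alpha chain, and the surface marker CD7 fell by 1.95 and 1.72 on the log2 scale (limma adjusted p = 0.000235 and 0.000412). CD247, the zeta chain of the receptor complex, rose by 1.88 (limma adjusted p = 7.79e-06). The summed level, 5001 to 5284 FPKM in wild type and 5737 to 6215 under the IK-KO label, was carried by TRBC2, the constant region of the beta chain, at 3225 to 3456 and 3960 to 4260 FPKM. These markers moved with the same groups as the members, and their part in the changes of the members was not tested. None of the 8 B-lineage, 7 myeloid, 6 erythroid or 5 NK markers passed the filter. Their sums reached at most 3.81, 0.948, 0.688 and 0.634 FPKM in any library, and 1 myeloid, 3 erythroid and 1 NK marker were at 0 in all 6 libraries. The relative depth of the libraries, read from the deposited confidence bounds, ranged from 0.92 to 1.03 in wild type and from 0.92 to 1.11 under the IK-KO label, and the number of reads is unknown.

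RAG1, which carries the catalytic site of the recombinase, was lower under the IK-KO label. It was at 60.8, 60.6 and 53.7 FPKM in wild type, against 17.0, 15.0 and 17.8 under the IK-KO label. Every wild type library stood far above every library labelled IK-KO. The means were 58.4 ± 4.06 and 16.6 ± 1.43 FPKM (SD, n = 3 each), so that 28.5% of the wild type level was left, a 3.51-fold difference. On the log2(FPKM + 1) scale the difference was −1.75 (SE 0.084, 95% interval −1.95 to −1.56, limma adjusted p = 5.07e-05). In bulk RNA, fewer cells with the transcript and less transcript per cell cannot be told apart. The gene (ENSG00000166349.9) is placed in the deposited tables at chr11:36510709-36593156, in the hg38 build. Its canonical transcript, at chr11:36568007-36579762 on the plus strand, has 2 exons of 6588 bases together and codes for all 1043 residues within 1 exon.

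RAG2, the partner that RAG1 needs for cutting and that binds trimethylated lysine of histone H3, was lower by a smaller factor. Its values were 19.8, 18.9 and 15.8 FPKM in wild type and 12.8, 7.004 and 10.8 under the IK-KO label. The groups did not overlap, but the lowest wild type library lay close to the highest library labelled IK-KO, and the second IK-KO replicate stood below the other 2. The means were 18.1 ± 2.08 and 10.2 ± 2.92 FPKM (SD, n = 3 each), or 56.1% of the wild type level and a 1.78-fold difference. The log2 difference was −0.81 (SE 0.20, 95% interval −1.27 to −0.34, limma adjusted p = 0.0289). This call was lost when the first wild type library (−0.75, adjusted p = 0.0874), the second wild type library (−0.78, adjusted p = 0.0849) or the third IK-KO library (−0.86, adjusted p = 0.0602) was left out of the limma fit. It was also lost when genes with low values were kept (adjusted p = 0.114) and when the median change of neighbouring genes was subtracted (−0.65, adjusted p = 0.0641). That median was subtracted as a fixed value. It was −0.16 over 8 tested genes within 2 Mb of RAG1, but −0.030 over 28 within 5 Mb. The gene (ENSG00000175097.7) is placed at chr11:36575574-36598279, with a canonical transcript of 2 exons and 2388 bases at chr11:36591943-36598236 on the minus strand. The 527 residues of RAG2 are also coded within 1 exon.

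DNTT was the most abundant of the 3 genes in all libraries. It was at 86.4, 89.7 and 81.6 FPKM in wild type, against 28.03, 24.7 and 26.5 under the IK-KO label. The groups were far apart, and the spread within each was small. The means of 85.9 ± 4.11 and 26.4 ± 1.66 FPKM (SD, n = 3 each) left 30.8% of the wild type level, a 3.25-fold difference. The log2 difference was −1.66 (SE 0.067, 95% interval −1.82 to −1.51, limma adjusted p = 2.06e-05). DNTT (ENSG00000107447.8) lies on another chromosome, at chr10:96304409-96338564, and its canonical transcript, at chr10:96304434-96338564 on the plus strand, spreads 1527 coding bases over 11 exons.

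**Figure D1:**
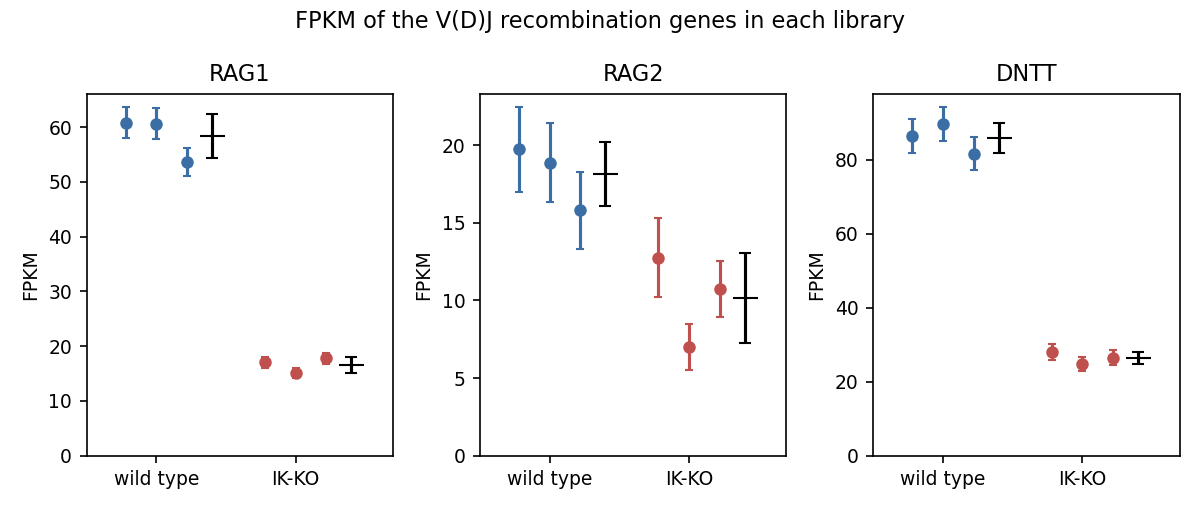
FPKM (vertical axes, from 0) of RAG1, RAG2 and DNTT in the 3 wild type libraries (blue) and the 3 libraries labelled IK-KO (red). Coloured bars are the deposited confidence bounds of each estimate, and the black mark is the group mean ± SD. The bounds of the groups are far apart for RAG1 and DNTT and overlap for RAG2, whose lowest wild type bound is 13.3 and whose highest IK-KO bound is 15.3.

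All 3 genes fell, against 9.75% of the 12652 tested genes that were lower with an adjusted p under 0.05, and 19.9% that passed in either direction. All 3 also had groups that did not overlap with wild type higher, which held for 18.1% of tested genes. The members were chosen with earlier results of these data known, so these shares give the background and are no test. Among the 1233 lowered genes, ordered by the size of the log2 difference, RAG1 was number 63, DNTT number 79 and RAG2 number 406. In wild type DNTT stood at the 92.1 percentile of tested genes by mean FPKM, RAG1 at 87.9 and RAG2 at 62.5. In the libraries labelled IK-KO the order of the genes was the same, at the 72.3, 59.8 and 46.5 percentiles. The median log2 difference over all tested genes was 0.02. The deposited confidence bounds were narrowest for RAG1, within 4.7 to 6.1% of the estimate, followed by 5.1 to 7.7% for DNTT, and were widest for RAG2, at 13.5 to 21.1%.

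Ratios within a library do not depend on its scaling and were used to ask whether the genes fell by the same factor. RAG1 to RAG2 was 3.08, 3.21 and 3.396 in wild type and 1.34, 2.14 and 1.65 under the IK-KO label. All wild type ratios were higher, with a log2 difference of −0.94 (exact two-sided permutation test, p = 0.1, the smallest that 3 against 3 libraries can give, adjusted p = 0.15 over the 3 ratios). DNTT to RAG2 was 4.37, 4.75 and 5.16 against 2.197, 3.53 and 2.46, also without overlap (log2 difference −0.83, exact permutation p = 0.1, adjusted p = 0.15). DNTT to RAG1, by contrast, was 1.42, 1.48 and 1.52 against 1.65, 1.65 and 1.49, and these groups overlapped (log2 difference 0.11, exact permutation p = 0.2, adjusted p = 0.2). None of the ratio differences can pass 0.05 in a design of this size.

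The genes whose pattern was most like that of each member were found by the root mean square difference, over the 6 libraries, of log2(FPKM + 1) relative to the wild type mean. Among the tested genes the nearest to RAG1 was DNTT, at 0.082, followed by ERG, an ETS-family transcription factor, at 0.084 and SWAP70 at 0.090. For DNTT the nearest were SWAP70 at 0.051, ERG at 0.054 and BEND4 at 0.067. ERG fell from 15.8 to 4.23 FPKM in the group means, SWAP70 from 6.08 to 1.17 and BEND4 from 6.94 to 1.57. DNTT itself fell from 85.9 to 26.4. The added 1 shrinks the log2 change of low genes more than that of high ones. Closeness on this scale therefore does not mean an equal factor in FPKM. RAG2 was nearest to AL049552.2 at 0.115, GALNT12, an enzyme of O-glycosylation, at 0.128 and AC024940.2 at 0.134. GALNT12 lies on chromosome 9, where the median log2 difference over 469 tested genes was −0.35. AL049552.2 lies on chromosome 6, where the median was 0.21. RAG1 and RAG2, which share a locus, differed by 0.69. By this measure 402 genes were closer to RAG1 than RAG2 was, and 7555 were closer to RAG2 than RAG1 was. These distances describe 6 libraries in 2 groups and carry no test.

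The partners of the recombinase, the end-joining factors and the regulators were taken from 5 lists of 68 genes, of which 65 were tested. In all, 17 rose and 5 fell, which is 33.8% of those tested against 19.9% of all tested genes. The median log2 difference was 0.09 against 0.02 over all tested genes. The 5 that fell were KPNA1, LIG4, PAXX, RNF168 and ETS1. The regulators alone supplied 12 of the 17 rises and 13 of the 22 called genes. Called in the other lists were 2 of 14 partners and turnover factors, 3 of 9 end-joining genes, 1 of 2 polymerases and 3 of 14 break response genes. The pooled share therefore does not describe the recombination machinery apart from its regulators.

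**Figure D2:**
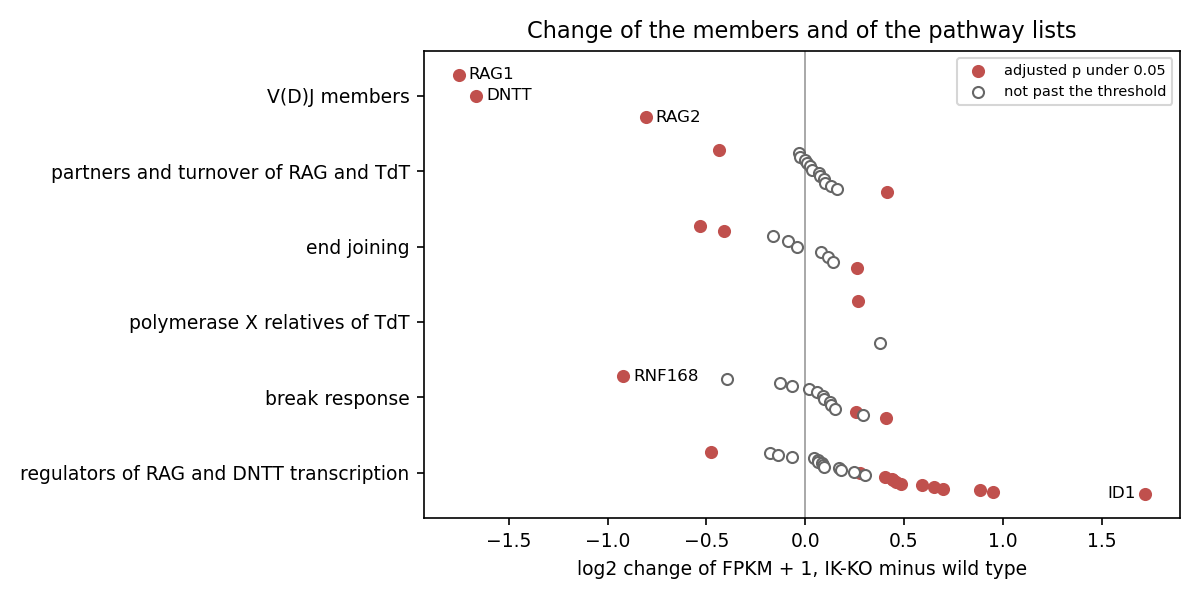
Log2 difference of FPKM + 1, IK-KO minus wild type (horizontal axis), for the 3 members and the tested genes of 5 pathway lists (rows). Filled points passed an adjusted p of 0.05. RAG1, DNTT and RAG2 lie at −1.75, −1.66 and −0.81, while most listed genes lie close to 0 and the regulators lean to the right, with ID1 at 1.72.

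Of 14 partners and turnover factors of RAG and TdT, all tested, 1 rose, 1 fell and 12 did not pass, so that 14.3% were called, below the 19.9% of all tested genes. HMGB1, the DNA-bending protein that helps RAG hold its signal sequences, had the highest level, at 1187, 1280 and 1212 FPKM in wild type and 1233, 1269 and 1203 under the IK-KO label, and the groups overlapped. CDK2, a cell cycle kinase that marks RAG2 for degradation, rose from 65.6 ± 3.05 to 87.8 ± 4.11 FPKM (log2 0.41, limma adjusted p = 0.00354). KPNA1, an importin that binds RAG1, fell from 26.4 ± 1.32 to 19.2 ± 1.17 FPKM (log2 −0.44, limma adjusted p = 0.00664).

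Of 10 end-joining genes 9 were tested, with 1 higher and 2 lower, or 33.3% called against 19.9% of all tested genes. With so few genes nothing is read from this share. XRCC6, the Ku70 subunit that binds broken ends, had the highest level, with overlapping groups at 306 to 321 FPKM in wild type and 299 to 309 under the IK-KO label. LIG4, the ligase that seals the joint, fell from 12.2 ± 0.981 to 8.11 ± 0.936 FPKM (log2 −0.53, limma adjusted p = 0.0127). PAXX, which stabilises Ku at ends, fell from 47.8 ± 1.78 to 35.9 ± 4.88 (log2 −0.41, limma adjusted p = 0.026), and it lies on chromosome 9, where the median over 469 tested genes was −0.35. PRKDC, the catalytic subunit of DNA-dependent protein kinase, rose from 68.6 ± 3.36 to 82.4 ± 4.38 (log2 0.26, limma adjusted p = 0.0247).

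TdT belongs to polymerase family X, and of its 3 relatives 2 were tested, of which 1 rose and 0 fell. Over all tested genes 9.75% were called lower and 19.9% in either direction, so these few genes set no contrast with DNTT. POLB, the polymerase of base excision repair, was at 46.1, 48.4 and 46.5 FPKM in wild type and 59.6, 56.3 and 54.6 under the IK-KO label, and rose (log2 0.27, limma adjusted p = 0.0148). POLM, which fills gaps in end joining, was at 16.3, 16.2 and 17.2 against 23.8, 25.7 and 16.9 FPKM, with overlapping groups (log2 0.38, limma adjusted p = 0.115). POLL, another gap-filling polymerase, was under the filter, listed at 0 throughout wild type, and reached 0.282, 0.034 and 0.234 FPKM under the IK-KO label.

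Of 14 genes of the response to DNA breaks, all tested, 2 rose and 1 fell, and these 21.4% were near the 19.9% of all tested genes. The lowered gene was RNF168, a ubiquitin ligase that marks chromatin around breaks, at 39.9, 39.6 and 34.5 FPKM in wild type and 20.1, 19.8 and 18.9 under the IK-KO label (log2 −0.92, limma adjusted p = 0.000368). MRE11, a nuclease of the break sensor complex, rose from 14.9 ± 0.292 to 20.1 ± 1.24 FPKM (log2 0.41, limma adjusted p = 0.00738). MDC1, the adaptor that reads phosphorylated H2AX, rose from 15.8 ± 0.386 to 19.1 ± 0.568 (log2 0.26, limma adjusted p = 0.0278) and lies on chromosome 6, where the median over 655 tested genes was 0.21. H2AX itself had the highest level, at 199.0 to 199.6 FPKM in wild type and 204 to 226 under the IK-KO label, without passing the test (log2 0.09, limma adjusted p = 0.25).

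Among 27 regulators of RAG and DNTT transcription, 26 were tested, and 12 rose, 1 fell and 13 did not pass. Called were thus 13 of 26, against 19.9% of all tested genes. This list, which holds IKZF1 itself, was chosen with earlier results of these data known, so nothing is read from the share. ID1, an inhibitor of E proteins, was at 35.6, 40.3 and 28.3 FPKM in wild type and 119, 118 and 110 under the IK-KO label, and rose 3.33-fold (log2 1.72, limma adjusted p = 0.00019). Its relative ID3, named after its values were seen, rose from 118 ± 3.89 to 165 ± 7.21 FPKM (log2 0.48, limma adjusted p = 0.00107). The E protein TCF3, also chosen after its values were seen, was at 144 to 153 FPKM in wild type and 151 to 156 under the IK-KO label, and did not pass (log2 0.04, limma adjusted p = 0.522). The other listed genes of these families did not pass either. They were ID2 (log2 0.10, limma adjusted p = 0.578), TCF12 (log2 0.17, limma adjusted p = 0.1145) and TCF4 (log2 0.30, limma adjusted p = 0.568). Besides IKZF1 itself, its relative IKZF3, the gene of AIOLOS, rose from 3.74 ± 0.279 to 8.16 ± 0.361 FPKM (log2 0.95, limma adjusted p = 0.000794). NFYA, a subunit of the factor that binds CCAAT boxes, rose from 40.4 ± 2.85 to 66.2 ± 4.54 (log2 0.70, limma adjusted p = 0.00116), and lies on chromosome 6 like MDC1. LEF1, an HMG-box factor of the T lineage, had the highest level and rose from 729 ± 48.3 to 989 ± 36.3 FPKM (log2 0.44, limma adjusted p = 0.00282). The lone regulator that fell was ETS1, at 123, 128 and 110 FPKM in wild type and 84.7, 86.2 and 87.3 under the IK-KO label (log2 −0.48, limma adjusted p = 0.00302).

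Neighbouring genes were compared to see whether the loci as a whole were lower. TRAF6, the nearest tested gene before RAG1, was at 3.30, 4.39 and 4.90 FPKM in wild type and 3.84, 3.65 and 4.29 under the IK-KO label, with a log2 difference of −0.07 that did not pass (limma adjusted p = 0.794). API5, the nearest tested gene on the other side, lies 6.71 Mb beyond RAG2 and outside the 2 Mb and 5 Mb windows, and did not pass either (log2 −0.04, limma adjusted p = 0.729). C11orf74, which overlaps RAG2, was at 3.90, 2.83 and 2.45 FPKM in wild type and 2.39, 1.92 and 1.07 under the IK-KO label, without overlap but also without passing (log2 −0.55, limma adjusted p = 0.135). Within 2 Mb of RAG1 8 neighbours were tested, of which 1 rose and 1 fell, with a median log2 difference of −0.16, which became −0.030 over 28 genes within 5 Mb. Beside DNTT, ZNF518A before it (log2 −0.06, limma adjusted p = 0.864) and TM9SF3 after it (log2 0.15, limma adjusted p = 0.241) did not pass. Of 27 tested genes within 2 Mb of DNTT, 2 rose and 3 fell, and their median was −0.03. The log2 differences there reached −2.55 in PDLIM1 (limma adjusted p = 8.84e-05) and 1.80 in MARVELD1 (limma adjusted p = 0.0008). Within 5 Mb of DNTT 65 genes were tested, of which 2 rose and 7 fell, with a median of −0.07. Called genes were 2 of 8 near RAG1 and 5 of 27 near DNTT within 2 Mb. Within 5 Mb they were 8 of 28 and 9 of 65, and over all tested genes 19.9% were called. The medians over 654 tested genes of chromosome 11 and 473 of chromosome 10 were −0.0004 and −0.01, whereas chromosomes 9 (−0.35) and 6 (0.21) stood apart from the others, whose medians were −0.02 to 0.06. The part of this in the changes of PAXX, GALNT12, AL049552.2, MDC1 and NFYA was not tested.

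**Figure D3:**
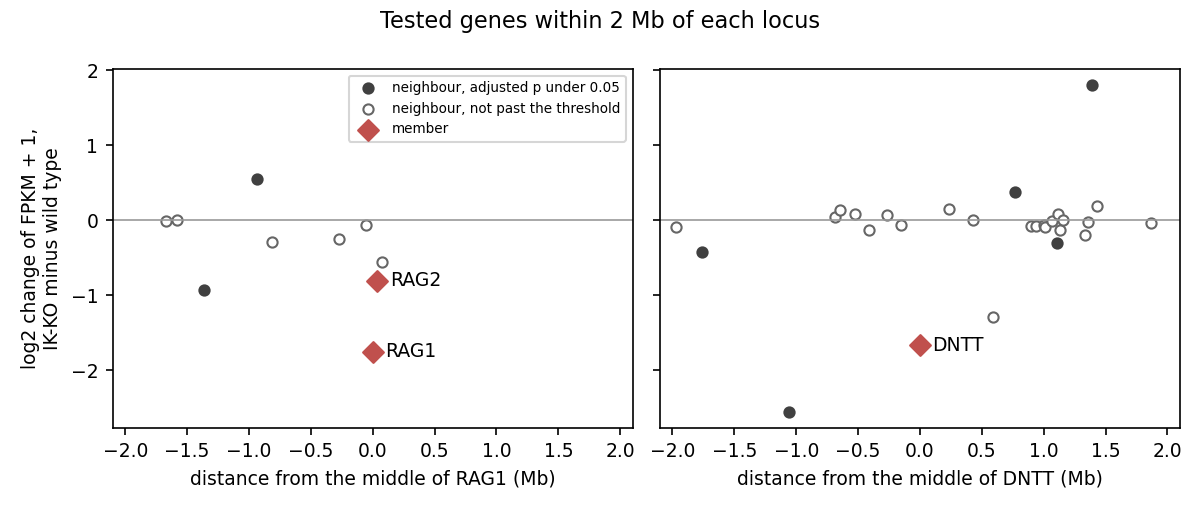
Log2 difference of FPKM + 1, IK-KO minus wild type (vertical axis), of the tested genes within 2 Mb of RAG1 (left) and DNTT (right), by the distance between gene middles in Mb (horizontal axis). Diamonds are the members, filled points passed an adjusted p of 0.05, and most neighbours lie near 0, with medians of −0.16 and −0.03.

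The nearest untested genes were at or near 0. AC061999.1, before RAG1, was listed at 0 in all libraries, and AC104042.1, after RAG2, was listed at 0 in wild type and at most at 0.222 FPKM under the IK-KO label. BLNK, before DNTT, and OPALIN, after it, were at most at 0.341 and 0.588 FPKM in any library. AL136181.1, which overlaps the start of DNTT, was at 0.358, 0.812 and 0.180 FPKM in wild type and 0.031, 0.108 and 0.025 under the IK-KO label, under the filter. The annotated spans of RAG1 and RAG2 overlap on opposite strands, whereas their canonical transcripts do not overlap. Whether strand was used in quantification is not given in the sources used here. At both loci, fragments from stretches that overlapping transcripts share therefore cannot be told apart.

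**Figure D4:**
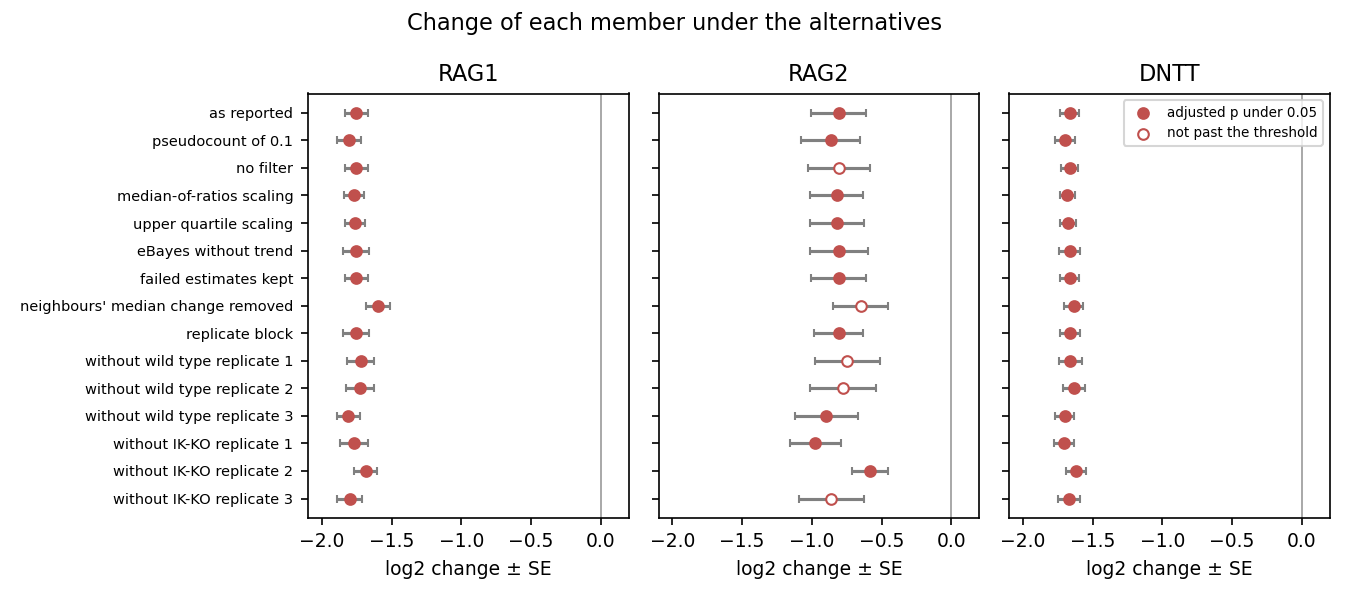
Log2 difference ± SE (horizontal axes) of RAG1, RAG2 and DNTT as reported and under 14 alternative settings (rows). Filled points passed an adjusted p of 0.05. RAG1 stays between −1.81 and −1.60 and DNTT between −1.71 and −1.62 with all points filled, while RAG2 ranges from −0.97 to −0.58 with 5 open points.

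RAG1 and DNTT passed the test under all 14 alternatives that were run, and RAG2 under 9 of them, with the direction the same for the 3 genes throughout.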

How the data were processed

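RNA from MOLT-4 cells (RNeasy, NEBNext Ultra II libraries) was sequenced in 3 wild type and 3 IK-KO libraries. The deposited tables hold FPKM per gene with confidence bounds, calculated by the authors. The submitters' processing notes name STAR 2.6.1c, Cufflinks 2.2.1, HOMER 4.10 and hg38 without roles, and the annotation and strand setting are not given in the sources used here. FPKM depend on the transcript models, and the read numbers behind them are unknown.

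Rows sharing an identifier (110 identifiers) were summed, and 29 genes with a failed estimate were left out. Tested genes had to average 1 FPKM or more over the 6 libraries. Values were taken as log2(FPKM + 1), and limma 3.58.1 was run in R 4.3.3 (trended eBayes, Benjamini-Hochberg adjustment over 12652 genes, threshold 0.05). The pseudocount understates changes of low genes. Ratios were compared with exact permutation tests. Scripts were tested on simulated data. Alternatives were another pseudocount, no filter, other scalings, no trend, failed estimates kept, subtraction of the neighbours' median, a replicate block and leaving out each library.

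The members and gene lists were chosen with earlier results of these data known. Named genes were the members, IKZF1, all polymerase X genes, up to 4 called genes per pathway list with the largest change and without overlap between groups, the most abundant gene of each list, the neighbours and the 3 genes most like each member. Chromosome medians were added after the data were seen. Promoter windows of RAG2 and DNTT (that of RAG1 is not reported here) were read from GRCh38 at canonical starts of the GENCODE annotation, whose gene positions equalled those of the tables for all 49727 shared identifiers.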

Additional observations from a re-analysis of the deposited data

How the results depend on the processing

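The log2 differences of RAG1 and DNTT kept their direction and their side of the threshold under all 14 alternatives, with largest limma adjusted p of 0.0024 and 0.00141. RAG2 lost its call without the filter (−0.81, adjusted p = 0.114) and after the neighbours' median change was removed (−0.65, adjusted p = 0.0641). Without the filter the SE also rose from 0.20 to 0.22, and the cause of the lost call was not tested. The neighbours' median at this locus was negative (−0.16), so subtracting it made the fall smaller. Leaving out single libraries gave −1.81 to −1.69 for RAG1, −0.97 to −0.58 for RAG2 and −1.71 to −1.62 for DNTT. RAG2 lost its call without wild type replicate 1 or 2 or IK-KO replicate 3. The number of called genes was 1720 to 2042 when single libraries were left out and at most 2807 otherwise, and that of called pathway genes was 18 to 23. The ratio of RAG1 to RAG2 gave log2 differences of −1.12 to −0.78, DNTT to RAG2 −1.03 to −0.69 and DNTT to RAG1 0.09 to 0.16. The median change of the neighbours of RAG1 moved from −0.16 to −0.030 in the 5 Mb window.

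The labels give replicate numbers but no pairing. Same-numbered libraries had correlations of their deviations from the group means of 0.067, 0.025 and 0.005. Differently numbered libraries were not compared, so these values do not settle whether the samples were paired. A replicate block gave 1805 called genes and 20 called pathway genes, and RAG2 passed with an adjusted p of 0.0454. The confidence bounds of RAG2 are the widest of the 3 genes, the cause was not tested, and the number of reads behind the FPKM is unknown.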
